A study of Mus musculus with 9 samples.

Results

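The genes described here are the insulin genes Ins1 and Ins2 and the gene of islet amyloid polypeptide, Iapp. They were taken by symbol and are 3 of the 22048 genes in the count table. The mouse has 2 insulin genes, and both make a preproinsulin that is folded in the endoplasmic reticulum, cut by convertases and stored with zinc in the granules of beta cells. Iapp encodes amylin, a peptide of the calcitonin family that is processed by the same convertases, stored in the same granules and released with insulin. Glucose is the main physiological stimulus of both hormones, acting on their release, on proinsulin translation and on transcription of their genes.

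RNA came from pancreatic islets of ICR mice, an outbred wild-type stock, cultured for 3 days in RPMI medium at 11.8 mM glucose (the control), at 20 mM or at 35 mM. The series presents these as normoglycemic, hyperglycemic and extreme hyperglycemic settings. Each of them had 3 libraries, named replicates 1 to 3. The treatment text gives 25 mM for the highest concentration, whereas 35 mM, the value used here, stands in the titles, the characteristics and the series' design. Islets came from 9 mice, but the labels do not say that each library is 1 mouse, so the spread behind the p-values may be technical in part. Age and sex are not in the labels used here, and no osmotic control is named.

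Libraries were made with CEL-Seq2, which tags the 3' end of each transcript, and each sample was sequenced as 3 barcoded sub-libraries, numbered here in the order of their barcodes, that were summed for all tests. Gene counts ran from 3228648 to 4559561 per library. Each transcript is tagged once, whatever its length, so counts of different genes are compared without division by length. The counts are reads rather than molecules and leave out reads aligned to more than 1 place, which limits comparisons between genes. Together Ins1 and Ins2 took 48.3% to 57.5% of the gene counts of a library, and hormone genes of other islet cells (Gcg, Sst, Ppy, Pyy and Ghrl) took 2.92% to 4.60%. Of 10 other beta cell markers 9 could be tested, whereas Mafa, an activator of the insulin genes, had 1 count in all 9 libraries together.

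On GRCm38, Ins1 (ENSMUSG00000035804) lies on chromosome 19 from 52264297 to 52265476 on the plus strand with 2 exons in GENCODE M21, of which the RefSeq model ends at 52265015. Ins2 (ENSMUSG00000000215) lies on chromosome 7 on the minus strand, with a RefSeq model from 142678656 to 142679726 and 9 GENCODE transcripts. Iapp (ENSMUSG00000041681) lies on chromosome 6 from 142298423 to 142303961 on the plus strand. No exon of another GENCODE gene overlaps exons of these 3 genes. Iapp sits inside the span of Slco1a5, an organic anion transporter gene on the opposite strand, with 0 shared exon bases.

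The insulin genes are near copies in the part of the coding region next to the stop codon. The part of this likeness in the assignment of reads of 50 bases to either gene was not tested. The last 108 coding bases of each, stop codon included, from the GENCODE M21 transcripts Ins1-201 (chr19:52264843-52264950, plus strand) and Ins2-201 (chr7:142678713-142678820, minus strand), are shown with the differing bases in capitals.
Ins1: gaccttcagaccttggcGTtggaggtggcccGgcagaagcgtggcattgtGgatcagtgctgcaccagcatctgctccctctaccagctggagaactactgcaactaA
Ins2: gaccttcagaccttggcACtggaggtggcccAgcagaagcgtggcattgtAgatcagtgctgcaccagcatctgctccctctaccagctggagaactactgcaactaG
They differ at 5 positions and share an unbroken run of 56 bases. That run ends 55 bases before the end of the Ins2-201 transcript and 527 bases before the end of Ins1-201. Of 251 windows of 50 bases in the last 300 bases of Ins2-201, 7 were identical to a stretch of Ins1 and 114 (45.4%) came within 2 mismatches of one. For the last 300 bases of Ins1 up to the RefSeq end, these numbers were 7 and 109 (43.4%), and for the last 300 bases of Ins1-201 they were 0 and 0. Of 925 windows of Iapp, 0 came within 2 mismatches of either insulin gene.

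Promoters of Iapp and Ins1 are shown with motifs of beta cell factors. The part of these motifs in the results of either gene was not tested. Of the 3 genes, these 2 matched the RefSeq promoter table used here and Ins2 did not. Each is the 250 bases before the RefSeq start (GRCm38.p6, plus strand), at chr19:52264047-52264296 for Ins1 and chr6:142298175-142298424 for Iapp. Capitals mark TAAT on either strand, the core bound by homeodomain factors such as Pdx1, and CANNTG, the E-box of basic helix-loop-helix factors such as Neurod1.
Ins1 promoter: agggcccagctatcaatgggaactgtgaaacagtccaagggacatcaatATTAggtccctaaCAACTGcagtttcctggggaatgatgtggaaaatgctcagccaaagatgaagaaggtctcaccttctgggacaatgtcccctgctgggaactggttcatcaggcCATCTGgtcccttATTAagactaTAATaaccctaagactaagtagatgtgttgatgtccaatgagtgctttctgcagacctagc
Iapp promoter: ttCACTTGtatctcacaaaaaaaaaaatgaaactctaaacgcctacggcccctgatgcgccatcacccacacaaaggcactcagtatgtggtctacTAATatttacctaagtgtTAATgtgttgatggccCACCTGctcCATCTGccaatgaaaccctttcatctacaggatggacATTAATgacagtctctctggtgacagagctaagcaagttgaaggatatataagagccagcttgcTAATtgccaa
The Ins1 promoter held 3 TAAT and 2 CANNTG matches, and the Iapp promoter held 5 and 3. The TAAT matches of Iapp at -74 and -72 overlap, on opposite strands. Overlapping matches were counted in all promoters alike. TAAT occurred in 54.9% and CANNTG in 66.2% of 32851 RefSeq promoters of that length. At least 3 TAAT matches, as in Ins1, were held by 17.3% of promoters and at least 5, as in Iapp, by 5.54%. For CANNTG, 31.8% held at least 2 and 12.2% at least 3. The CACGTG form of the E-box, found in 6.02% of promoters, and TGACG, the first bases of the cyclic AMP response element, found in 17.8%, had 0 matches on either strand in both. These are matches of letters, not evidence of binding.

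In 2 of the 27 sub-libraries 1 insulin gene was far below the other sub-libraries of the same RNA. In the third sub-library of 35 mM replicate 1, Ins2 made up 10.6% of gene counts, and 29.0% in the rest of that sample. In the third sub-library of 11.8 mM replicate 1, Ins1 took 11.8%, against 26.3%. In each, that insulin gene had the lowest ratio to the other sub-libraries of all genes with at least 1000 counts (log2 ratio -1.46 among 186 genes and -1.15 among 171), and the next genes stood at -0.27 (Maged1) and -0.38 (Gm42669, a predicted gene). Reads that aligned to more than 1 place made up 39.5% and 35.2% of all counted reads in these 2 sub-libraries, against 11.3% to 17.0% in the other 25. Adding these to the insulin reads gave 62.1% and 60.4% of counted reads, against 52.2% to 58.7% elsewhere. Iapp, as a share of the counts of all genes but insulin, was 4.26% and 3.25% in the same sub-libraries, inside the range of the other 25 (2.67% to 5.17%). The part of the assignment of reads in these values was not tested, and the comparisons of insulin between concentrations are given with and without both sub-libraries.

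**Figure D1:**
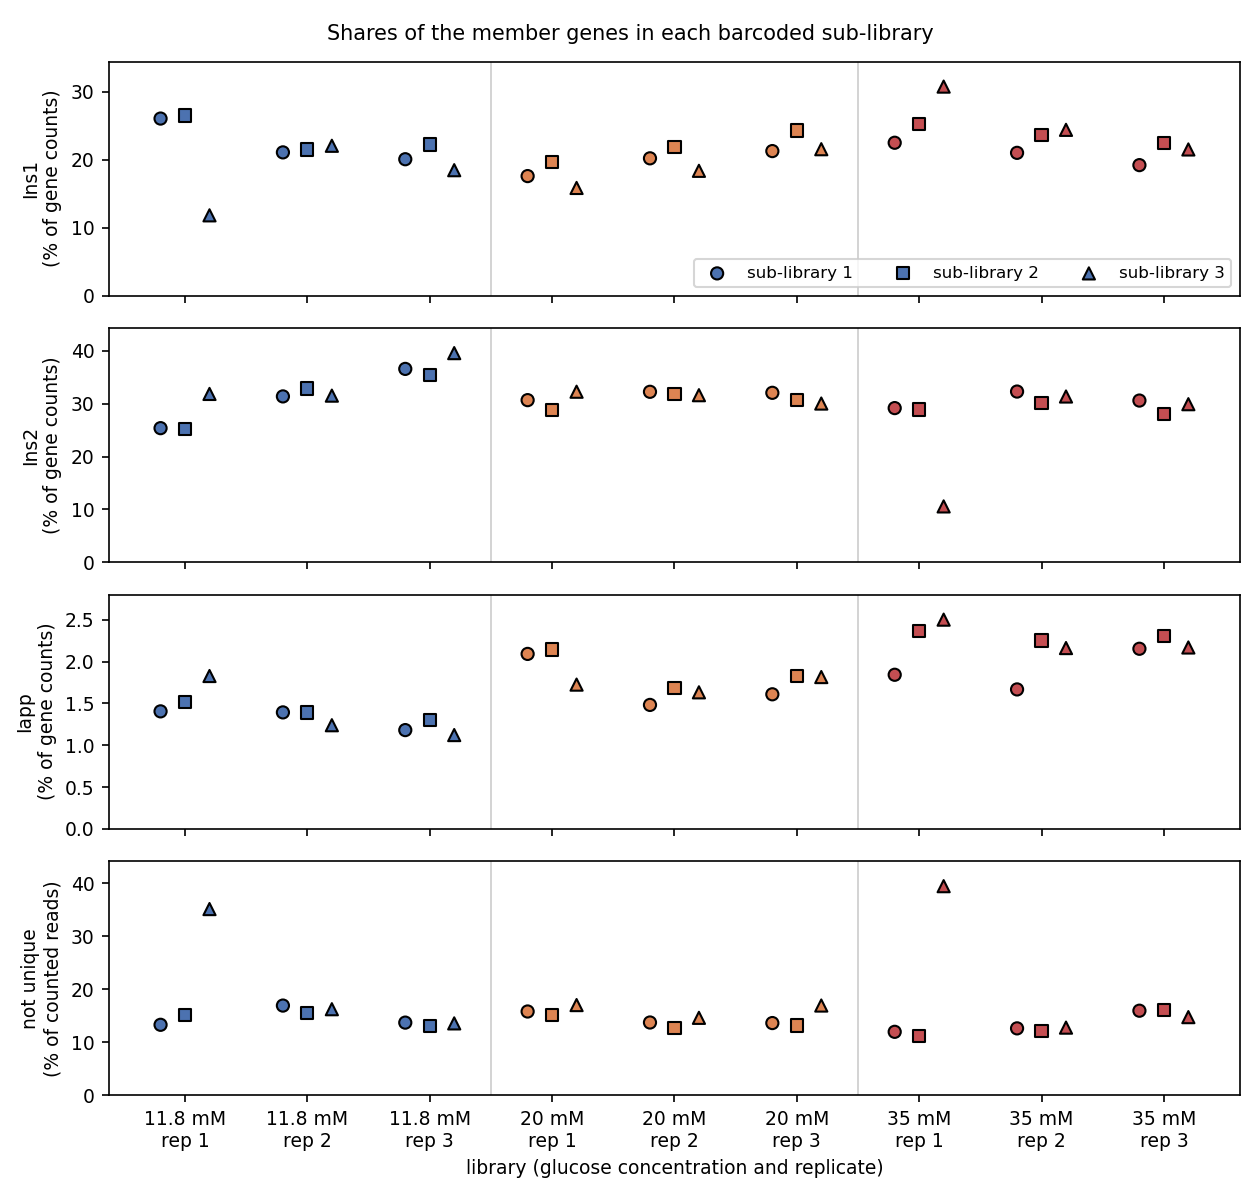
Share of each gene in the gene counts of every sub-library (3 upper panels, % of gene counts) and share of reads aligned to more than 1 place (bottom panel, % of all counted reads), by library and concentration, with a marker shape for each of the 3 sub-libraries. Ins1 in 11.8 mM replicate 1 and Ins2 in 35 mM replicate 1 have 1 low sub-library each, at 11.8% and 10.6%, where the reads aligned to more than 1 place reach 35.2% and 39.5%.

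Outside these, sub-libraries of 1 sample differed less in the insulin genes. Iapp ran from 1.67% to 2.25% of gene counts in 35 mM replicate 2, a ratio of 1.35. The ratio of the highest to the lowest sub-library of a sample had a median of 1.19 for Ins1, 1.09 for Ins2 and 1.16 for Iapp over the 9 samples. Its highest values were 2.24 and 2.76 for Ins1 and Ins2, in the samples named above, and 1.36 for Iapp.

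Ins2 was the most abundant gene in 8 of the 9 libraries and Ins1 the next. The exception was 35 mM replicate 1 with all its sub-libraries, where Ins1 took 26.1% and Ins2 23.4% of the gene counts. Without the 2 low sub-libraries that library had 24.1% Ins1 and 29.0% Ins2, and 11.8 mM replicate 1 became the exception with 26.3% and 25.3%. By counts Iapp had ranks 6, 6 and 5 in the libraries at 11.8 mM, rank 4 in all those at 20 mM and rank 3 in all those at 35 mM. Its counts were below those of Gcg, the glucagon gene of alpha cells, in the 3 libraries at 11.8 mM and above them in the other 6.

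Ins1 stood at 193567, 228414 and 222626 CPM (the count scaled to library size, with TMM-adjusted sizes) in 11.8 mM replicates 1 to 3, at 174152, 204627 and 231594 CPM at 20 mM, and at 243670, 239090 and 207470 CPM at 35 mM. The 3 concentrations overlapped for this gene, with the lowest of the 9 values at 20 mM and the highest at 35 mM. Means were 214869 ± 18674, 203457 ± 28739 and 230077 ± 19711 CPM at 11.8, 20 and 35 mM (SD, n = 3 each).

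Ins2 stood at 239813, 338363 and 414254 CPM at 11.8 mM, at 306016, 324125 and 317207 CPM at 20 mM, and at 218223, 330815 and 293124 CPM at 35 mM. Its spread differed between concentrations, with a coefficient of variation of 26.4% at 11.8 mM, 2.89% at 20 mM and 20.4% at 35 mM. The 11.8 mM libraries held the highest value and all 3 concentrations overlapped.

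Iapp stood at 13867, 14045 and 13220 CPM at 11.8 mM, at 19333, 16365 and 18173 CPM at 20 mM, and at 21017, 20680 and 21781 CPM at 35 mM. Each library at 35 mM was above each at 20 mM, and each at 20 mM above each at 11.8 mM. Taken alone, these steps held for 6.15% and 6.79% of the genes tested, and the share with both was not computed. Coefficients of variation were 3.17%, 8.33% and 2.67% at 11.8, 20 and 35 mM, below those of Ins1 at each concentration (8.69%, 14.1% and 8.57%). In these bulk samples more beta cells and more RNA per beta cell cannot be told apart.

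**Figure D2:**
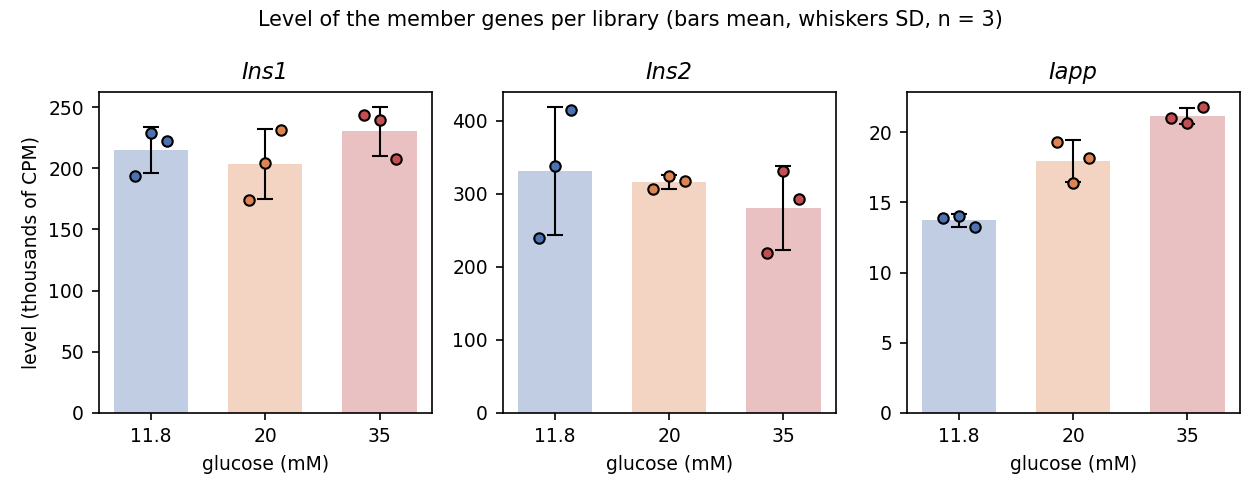
Level of Ins1, Ins2 and Iapp in CPM divided by 1000 (linear axes starting at 0) by glucose concentration. Points are libraries, bars are means and whiskers SD (n = 3 each): Iapp steps up with each concentration without overlap between libraries, with means of 13710, 17957 and 21159 CPM at 11.8, 20 and 35 mM, whereas libraries overlap for both insulin genes.

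The effect of extreme glucose was addressed by comparing 35 mM with 11.8 mM. Iapp rose and neither insulin gene passed the test. Iapp averaged 21159 ± 564 CPM at 35 mM and 13710 ± 434 CPM at 11.8 mM (SD, n = 3 each), a 1.54-fold rise. Its log2 fold change was 0.63 ± 0.13 (SE; 95% interval 0.36 to 0.89; adjusted p = 0.00865, quasi-likelihood test of edgeR, Benjamini-Hochberg adjusted over 9739 genes), and by p it ranked 40 among those genes. In this comparison 0.863% of the genes tested passed at an adjusted p under 0.05, with 0.626% higher and 0.236% lower at 35 mM, and 8.22% had all libraries at 35 mM above all at 11.8 mM, as Iapp did. The call of Iapp held in 20 of 23 alternative settings. It was missed without 35 mM replicate 2 (adjusted p = 0.0567), without 11.8 mM replicate 2 (adjusted p = 0.0503) and with the first sub-library of each sample alone, where the log2 fold change was 0.45 (adjusted p = 0.337), all by edgeR.

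For Ins1 the log2 fold change at 35 against 11.8 mM was 0.10 ± 0.14 (SE; 95% interval -0.20 to 0.39; adjusted p = 0.889, edgeR). For Ins2 it was -0.24 ± 0.17 (95% interval -0.59 to 0.11; adjusted p = 0.705, edgeR). Without the 2 low sub-libraries the values were -0.013 for Ins1 and -0.11 for Ins2, and 0.65 for Iapp (adjusted p = 0.00558, edgeR), so that the sign of Ins1 rested on these sub-libraries. Scaling to the ERCC spike-in RNAs gave log2 fold changes at 35 against 11.8 mM of 0.23 for Ins1, -0.086 for Ins2 and 0.75 for Iapp. The median of all genes moved to 0.12 with it. Relative to that median the log2 fold changes were 0.10 for Ins1, -0.21 for Ins2 and 0.63 for Iapp. Setting them against the median takes the spike-in scaling out again, so these are no separate check.

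The response to the lower raised concentration was addressed by comparing 20 mM with 11.8 mM, where no insulin gene or Iapp passed the test over all genes. Iapp averaged 17957 ± 1496 CPM at 20 mM and 13710 ± 434 CPM at 11.8 mM (SD, n = 3 each), and a log2 fold change of 0.39 ± 0.13 (SE; 95% interval 0.13 to 0.65; adjusted p = 0.340, edgeR). All 3 libraries at 20 mM were above all 3 at 11.8 mM, which held for 6.79% of the genes tested, and 0.185% passed at an adjusted p under 0.05 (0.154% higher at 20 mM). The DESeq2 Wald test gave the same log2 fold change of 0.39 with an adjusted p of 0.00337, the 1 of 23 alternatives in which Iapp passed. Log2 fold changes were -0.079 ± 0.14 for Ins1 (adjusted p = 0.945, edgeR) and -0.067 ± 0.17 for Ins2 (adjusted p = 0.960, edgeR). The 95% intervals ran from -0.37 to 0.22 and from -0.42 to 0.28. Ins1 stood at -0.19 and Ins2 at -0.063 without the 2 low sub-libraries (adjusted p = 0.833 and 0.965, edgeR). With spike-in scaling Ins1 was at -0.019, Ins2 at 0.0047 and Iapp at 0.45, and the median of all genes at 0.057. Relative to that median, which takes the spike-in scaling out again, Ins1 was at -0.076, Ins2 at -0.052 and Iapp at 0.39.

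Between the raised concentrations, 35 and 20 mM, Iapp had a log2 fold change of 0.24 ± 0.13 (SE; 95% interval -0.027 to 0.50; adjusted p = 0.932, edgeR). Its libraries at 35 mM were all above those at 20 mM, as in 6.15% of the genes tested, and 0.0308% passed at an adjusted p under 0.05. Ins1 stood at 0.18 ± 0.14 (95% interval -0.12 to 0.47; adjusted p = 0.942, edgeR) and Ins2 at -0.17 ± 0.17 (95% interval -0.52 to 0.18; adjusted p = 0.960, edgeR). Neither passed. They stood at 0.18 and -0.046 without the 2 low sub-libraries (adjusted p = 0.960 and 0.988, edgeR). Any 2 of these comparisons share the libraries of 1 concentration and are not independent of each other.

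**Figure D3:**
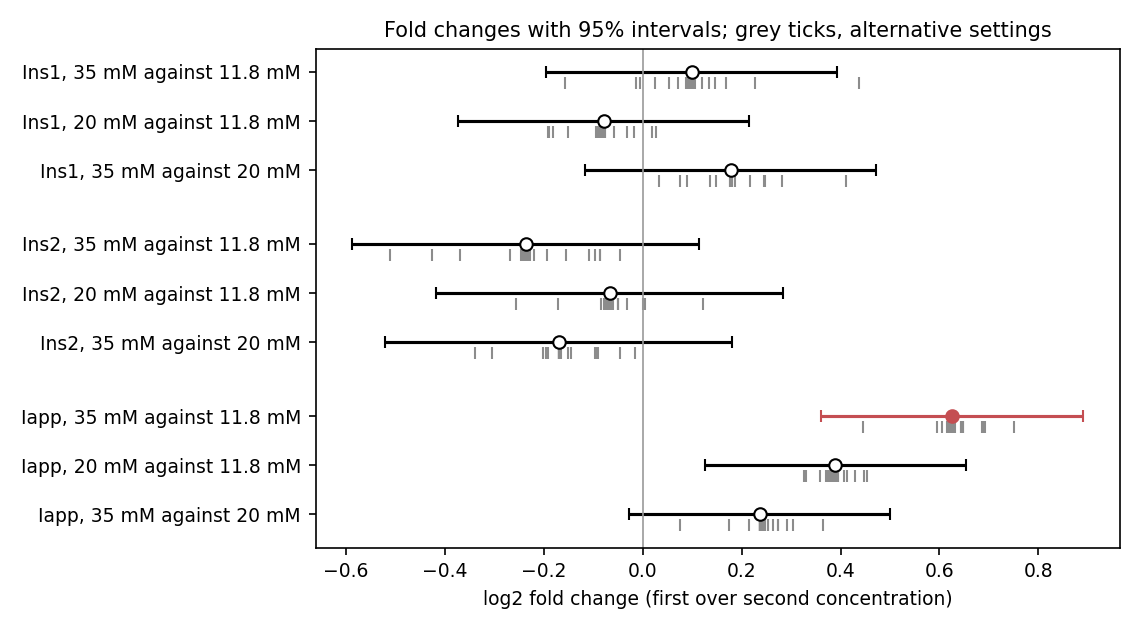
Log2 fold change (first over second concentration) of each gene in the 3 comparisons with its 95% interval (edgeR, 9 libraries). The filled red point passed at an adjusted p under 0.05, and grey ticks are the alternative settings: those of Iapp lie between 0.45 and 0.75 at 35 against 11.8 mM, and those of Ins1 lie between -0.16 and 0.44 there.

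Since insulin takes a large part of each library, Iapp was also set against insulin within each library, which needs no scaling between libraries. Iapp counts per 100 insulin counts (Ins1 plus Ins2) were 3.20, 2.48 and 2.08 in the libraries at 11.8 mM, 4.03, 3.10 and 3.31 at 20 mM, and 4.55, 3.63 and 4.35 at 35 mM. All libraries at 35 mM were above those at 11.8 mM, whereas those at 20 mM overlapped both other groups. The log2 difference between 35 and 11.8 mM was 0.71, a 1.63-fold ratio of geometric means, at the smallest p that 3 against 3 libraries can give (p = 0.1, two-sided exact permutation test; adjusted p = 0.6 over the 9 ratio tests). It was 0.44 at 20 against 11.8 mM and 0.27 at 35 against 20 mM (p = 0.2 each, exact permutation tests; adjusted p = 0.6). Without the 2 low sub-libraries the differences were 0.71, 0.50 and 0.21 (p = 0.1, 0.1 and 0.2, exact permutation tests, unadjusted). The highest library at 11.8 mM was then at 2.85 and no longer overlapped those at 20 mM, the lowest of which was at 3.10. In edgeR with insulin counts as library sizes, Iapp at 35 against 11.8 mM stood at 0.69 on the log2 scale (SE 0.18; adjusted p = 0.0499).

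As a share of the counts of all genes other than insulin, Iapp took 3.10%, 2.87% and 2.81% at 11.8 mM, 3.76%, 3.35% and 3.79% at 20 mM, and 4.47%, 4.31% and 4.46% at 35 mM. On this scale no 2 concentrations overlapped, and the share of all genes that do so was not computed. The 9 sub-libraries at 35 mM ran from 3.57% to 5.17%, all above the 9 at 11.8 mM, which ran from 2.67% to 3.25%, and those at 20 mM, from 3.12% to 4.16%, overlapped both. Sub-libraries are repeats of 1 RNA and were not tested.

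The mix of the insulin genes was compared as the share of Ins1 in all insulin counts. It was 44.7%, 40.3% and 35.0% at 11.8 mM, 36.3%, 38.7% and 42.2% at 20 mM, and 52.8%, 42.0% and 41.4% at 35 mM. Only 35 mM replicate 1 lay above all libraries at 11.8 mM, and it stood at 45.4% without its low sub-library, whereas 11.8 mM replicate 1 was then at 51.0%. Means were 45.4% ± 6.39 at 35 mM and 40.0% ± 4.86 at 11.8 mM (SD, n = 3 each), a difference of 5.41 percentage points (p = 0.4, two-sided exact permutation test; adjusted p = 0.6). Without the 2 low sub-libraries it was 0.85 points (p = 0.8, exact permutation test). The differences were -0.92 points at 20 against 11.8 mM (p = 0.8, exact permutation test; adjusted p = 0.9) and 6.33 at 35 against 20 mM (p = 0.3, exact permutation test; adjusted p = 0.6). These were -3.03 and 3.88 points without the 2 low sub-libraries (p = 0.7 and 0.3, exact permutation tests).

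Total insulin made up 53.5% ± 4.15 of all counts assigned to genes in 11.8 mM islets, 51.2% ± 2.61 in 20 mM islets and 51.5% ± 2.49 in 35 mM islets (SD, n = 3 each). The difference was -1.99 points at 35 against 11.8 mM (p = 0.7, two-sided exact permutation test; adjusted p = 0.9). It was -2.28 points at 20 against 11.8 mM (p = 0.4, exact permutation test; adjusted p = 0.6) and 0.29 at 35 against 20 mM (p = 1, exact permutation test; adjusted p = 1). Each was smaller than the pooled SD of the libraries compared, which was 3.42, 3.46 and 2.55 points in the same order. Without the 2 low sub-libraries the differences were -1.58, -3.07 and 1.49 points (p = 0.5, 0.4 and 0.6, exact permutation tests). That at 20 against 11.8 mM was then larger than its pooled SD of 2.81 points, with groups that overlapped (48.3% to 53.3% at 20 mM and 51.6% to 57.5% at 11.8 mM).

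**Figure D4:**
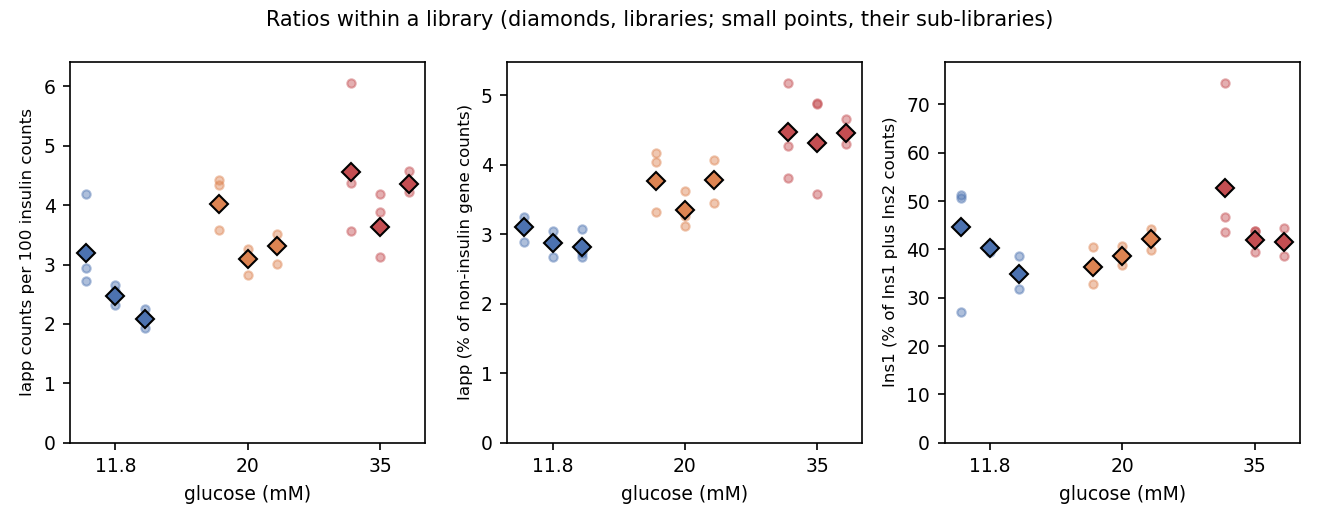
Iapp counts per 100 insulin counts, Iapp as % of the counts of all other genes than insulin, and Ins1 as % of insulin counts, by glucose concentration. Diamonds are libraries and small points their sub-libraries: on the middle scale the libraries do not overlap between concentrations (2.81% to 3.10%, 3.35% to 3.79% and 4.31% to 4.47%), and on the right scale they do.

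The genes that serve these hormones were described by list, in the order of their action. Of 20 factors that bind or activate the insulin promoters, 18 could be tested, and 0 passed in any comparison. Mafa and Crtc2 were too low to test, with 1 and 21 counts over all 9 libraries, so nothing is said of them. At 35 against 11.8 mM the list had a median log2 fold change of -0.046, against -0.0027 for all genes tested. The medians were -0.12 at 20 against 11.8 mM and 0.11 at 35 against 20 mM. Pdx1 and Neurod1, which bind the insulin promoters, stood at 0.0025 and -0.023 at 35 against 11.8 mM. The smallest p of the list was that of Mlxipl, the gene of the glucose-responsive factor ChREBP, with a log2 fold change of -0.39 ± 0.15 at 20 against 11.8 mM (adjusted p = 0.463, edgeR).

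Of 13 genes of proinsulin folding, 0 passed at 35 against 11.8 mM (median 0.15) and 1 rose at 20 against 11.8 mM (median 0.32, with 11 of 13 above 0, against a median of -0.0016 for all genes, of which 4849 of 9739 were above 0 and 0.154% passed as higher). That gene was Pdia6, a disulfide isomerase of the endoplasmic reticulum, which averaged 1751 ± 183 CPM at 20 mM and 1158 ± 89.2 CPM at 11.8 mM (SD, n = 3 each; log2 fold change 0.60 ± 0.13; adjusted p = 0.0489, edgeR). The call was kept in 5 of 22 alternatives. In addition, 50 exon bases of Pdia6 overlap Atp6v1c2 on the opposite strand. Without strand, reads within these bases cannot be told apart between the genes. P4hb, protein disulfide isomerase, stood at 0.41 and Hsp90b1, a chaperone, at 0.37 at 35 against 11.8 mM (adjusted p = 0.225 and 0.213, edgeR). At 35 against 20 mM the list had a median of -0.13 and 0 genes passed.

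Of 11 genes of prohormone processing and storage, 2 rose at 35 mM and the same 2 at 20 mM, each against 11.8 mM, and 0 fell. Of all genes tested, 0.626% and 0.154% passed as higher at 35 and at 20 mM. The 2 genes were Pcsk1, the convertase that makes the first cuts in proinsulin and also cuts pro-amylin, and Chgb, chromogranin B of the granule. Pcsk1 averaged 199 ± 12.7 CPM at 35 mM, against 124 ± 5.58 CPM at 11.8 mM (SD, n = 3 each; log2 fold change 0.68 ± 0.13; adjusted p = 0.00500, edgeR). Chgb averaged 1501 ± 114 CPM at 35 mM, against 872 ± 111 CPM at 11.8 mM (SD, n = 3 each; log2 fold change 0.78 ± 0.13; adjusted p = 7.84e-04, edgeR). At 20 against 11.8 mM their log2 fold changes were 0.75 and 0.73 (adjusted p = 0.00543 and 0.00576, edgeR), and at 35 against 20 mM -0.072 and 0.059 (adjusted p = 0.982 each, edgeR).

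The other members of that list did not pass. Pcsk2, the convertase of the later cuts, stood at 0.27, Cpe, the carboxypeptidase that trims both hormones, at 0.10, and Pam, which amidates amylin, at 0.41 at 35 against 11.8 mM (adjusted p = 0.466, 0.856 and 0.153, edgeR). Slc30a8, the zinc transporter of insulin granules, stood at -0.42 (adjusted p = 0.167, edgeR). The median of the list was 0.15 at 35 mM and 0.11 at 20 mM against 11.8 mM, and 0.014 at 35 against 20 mM. The call of Chgb at 35 mM held in 22 of 22 alternatives and that of Pcsk1 in 20, and at 20 mM each held in 19. Both missed it there without 20 mM replicate 1, at 0.69 for Chgb and 0.63 for Pcsk1 (adjusted p = 0.0575 and 0.0849, edgeR).

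**Figure D5:**
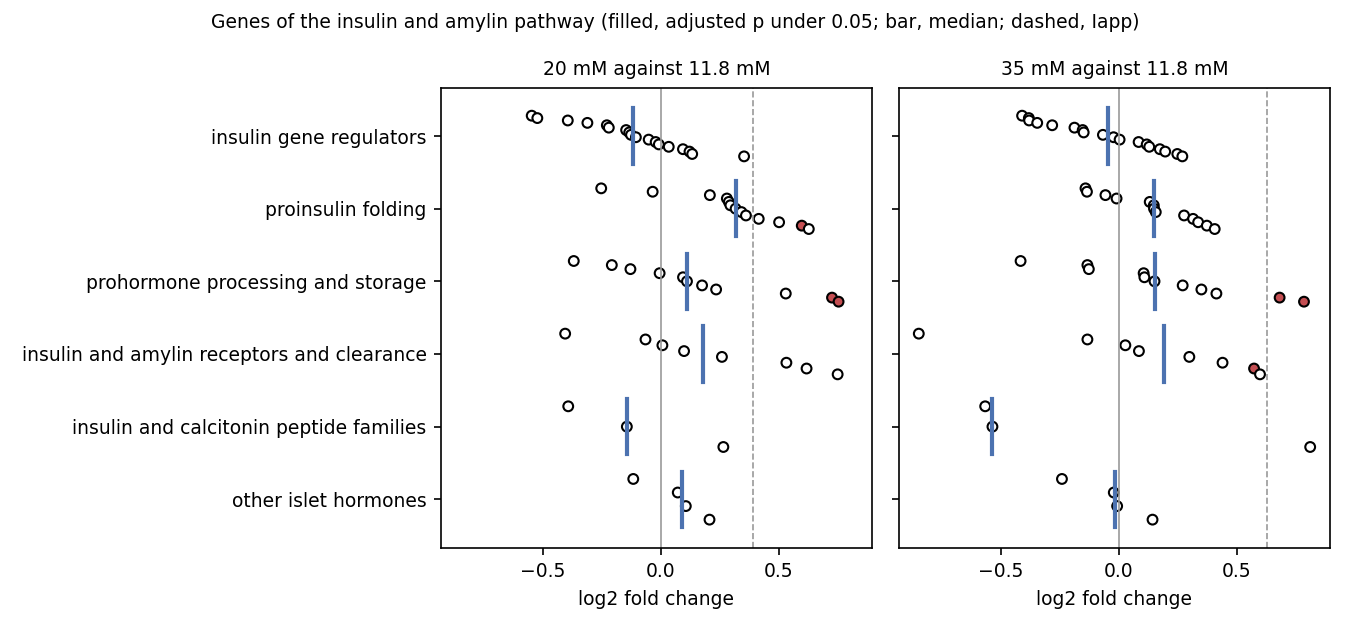
Log2 fold changes at 20 mM and at 35 mM, each against 11.8 mM, of 6 lists of genes around insulin and amylin. Points are genes (filled where the adjusted p was under 0.05), bars are list medians and the dashed line is Iapp at 0.39 and 0.63: Pdia6, Pcsk1 and Chgb passed at 20 mM and Pcsk1, Chgb and Igf1r at 35 mM.

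On the side of the receptors, 8 of 10 genes were tested and 1 rose at 35 against 11.8 mM (list median 0.19), where 0.626% of all genes tested passed as higher and their median was -0.0027. Igf1r, the receptor of insulin-like growth factors, averaged 228 ± 4.45 CPM at 35 mM and 153 ± 4.24 CPM at 11.8 mM (SD, n = 3 each; log2 fold change 0.57 ± 0.14; adjusted p = 0.0444, edgeR), a call kept in 10 of 22 alternatives. Insr, the insulin receptor, stood at -0.85 (adjusted p = 0.426, edgeR), but at low levels of 2.82 CPM at 35 mM and 5.14 CPM at 11.8 mM. Ide, an enzyme that degrades both peptides, stood at 0.027. Of the parts of the amylin receptor, Calcr had 0 counts in all 9 libraries and Ramp3 had 2, whereas Ramp1 and Ramp2 stood at 0.44 and 0.60 (adjusted p = 0.789 and 0.511, edgeR). Levels of Ramp1 and Ramp2 were also low, at 4.19 and 6.43 CPM at 35 mM and 3.02 and 4.23 CPM at 11.8 mM. No gene of the list passed at 20 against 11.8 mM (median 0.18) or at 35 against 20 mM (median -0.11).

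Of 11 relatives of insulin and amylin, 3 were tested and 0 passed. Adm2, a peptide of the calcitonin family, stood at 0.81 ± 0.35 at 35 against 11.8 mM (adjusted p = 0.426, edgeR), with 18.7 ± 4.93 and 10.6 ± 5.79 CPM at 35 and 11.8 mM (SD, n = 3 each). Its value rested on single libraries: it was 1.26 without 11.8 mM replicate 1, where it passed (adjusted p = 0.0423, edgeR), and 0.49 without 11.8 mM replicate 3 (adjusted p = 0.671, edgeR). Igf1 and Igf2 stood at -0.57 and -0.54, with low levels of 3.65 and 4.98 CPM at 35 mM and 5.36 and 7.22 CPM at 11.8 mM. The others, such as Calca, Calcb and the relaxin and insulin-like genes, had 0 to 24 counts over all 9 libraries.

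Other hormone and beta cell genes were set beside Iapp. The hormone genes of other islet cells had medians of -0.015 at 35 mM and 0.088 at 20 mM against 11.8 mM and -0.11 at 35 against 20 mM, and 0 of 4 tested passed. Gcg had the smallest p, with a log2 fold change of -0.24 ± 0.13 at 35 against 11.8 mM (adjusted p = 0.556, edgeR). Of 9 other beta cell markers 1 fell at 35 mM, as did 0.236% of all genes tested. It was Trpm5, a calcium-activated cation channel, at 21.7 ± 3.14 CPM at 35 mM, against 41.3 ± 2.91 CPM at 11.8 mM (SD, n = 3 each; log2 fold change -0.93 ± 0.17; adjusted p = 0.00323, edgeR). Its call held in 19 of 22 alternatives, over which the adjusted p reached 0.354 (edgeR or DESeq2). Among the 3 that missed it, the fit without 35 mM replicate 1 gave -0.82 (adjusted p = 0.0544, edgeR). Exons of Trpm5 overlap Tssc4 on the opposite strand over 220 bases. The beta cell list had medians of -0.21 at 35 mM and -0.15 at 20 mM against 11.8 mM, and 0.020 at 35 against 20 mM. Summed, its genes took 0.304% to 0.315% of the counts at 35 mM and 0.237% to 0.279% at 11.8 mM, with no overlap, and 0.279% to 0.351% at 20 mM. G6pc2, a glucose-6-phosphatase of beta cells, held the largest part of that sum, with 1987 ± 143 CPM at 35 mM and 1328 ± 303 CPM at 11.8 mM (SD, n = 3 each; adjusted p = 0.0814, edgeR). The part of these genes' shares in the Iapp result was not tested.

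Markers of other cells of the pancreas had 0 members past the test in each comparison. Summed acinar markers took 0.346% to 1.28% of the counts at 11.8 mM, 0.721% to 1.30% at 20 mM and 0.674% to 1.16% at 35 mM, with list medians of 0.075 at 35 mM and 0.38 at 20 mM against 11.8 mM. Immune markers took 0.00913% to 0.0179% at 35 mM and 0.0119% to 0.0152% at 11.8 mM, and fibroblast and stellate markers 0.0265% to 0.0449% and 0.0320% to 0.0636% at 35 and 11.8 mM. Duct markers took 0.0286% to 0.0355% at 35 mM and 0.0172% to 0.0291% at 11.8 mM. All of these ranges overlapped between the 2 concentrations. Endothelial markers took 0.000921% to 0.000948% at 35 mM and 0.00139% to 0.00163% at 11.8 mM, with no overlap but at very low counts. Pecam1, Plvap and Flt1 averaged 2.12, 3.10 and 2.19 CPM at 35 mM and 4.16, 3.17 and 5.60 CPM at 11.8 mM. Cdh5, Kdr, Emcn and Esm1 were too low to test. At 35 against 11.8 mM the list medians were -0.44 for immune (2 of 9 genes tested above 0), -0.45 for fibroblast and stellate (1 of 7), -0.95 for endothelial (0 of 3) and 0.28 for duct markers (3 of 5), against -0.0027 for all genes. At 20 against 11.8 mM they were -0.33, -0.36, -0.62 and 0.12 for these 4 lists, and 15 of 15 acinar markers were above 0. The part of these cells in the Iapp result was not tested. The genes with the smallest p were Cela2a (acinar, 0.70 at 20 against 11.8 mM), Krt7 (duct, 0.44), Flt1 (endothelial, -1.37) and Fcer1g (immune, -0.94), all 3 at 35 against 11.8 mM, and Lum (fibroblast, -1.78 at 35 against 20 mM), with adjusted p from 0.138 to 0.905 by edgeR. In the alternatives Krt7 passed in 2 of 22, Flt1 in 1 of 19 and Fcer1g in 1 of 20. Cela2a passed in 0 of 18 and Lum in 0 of 17. The fit in which Fcer1g passed was that without 11.8 mM replicate 1, at -1.11 (adjusted p = 0.0495, edgeR).

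Slco1a5, whose span holds Iapp on the opposite strand, was also higher at the raised concentrations. It averaged 26.4 ± 2.62 CPM at 35 mM and 8.69 ± 3.08 CPM at 11.8 mM (SD, n = 3 each; log2 fold change 1.62 ± 0.23; adjusted p = 6.70e-05, edgeR), and 21.2 ± 3.47 CPM at 20 mM (log2 fold change 1.30 ± 0.23 against 11.8 mM; adjusted p = 0.00543, edgeR). Its counts were 83 to 109 at 35 mM and 25 to 42 at 11.8 mM, against 71227 to 78324 and 45378 to 60676 Iapp counts. No source used here gives the strand used in counting.

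The genes most like each member in level over the 9 libraries were found among 3358 genes whose mean level was 20 CPM or more, by Pearson's r of log2(CPM + 1). As the groups differ for Iapp, r partly restates that difference, and libraries share depth and scaling, so r is a description. Closest to Iapp were Prkar1a, a regulatory subunit of protein kinase A (r = 0.98), Gng12, a G protein subunit (0.97), Cox6a1, a subunit of cytochrome c oxidase (0.96), Shisa5 (0.95) and Pycr1, an enzyme of proline synthesis (0.95). Among these, Gng12, Shisa5 and Pycr1 rose at 35 against 11.8 mM, with log2 fold changes of 0.57, 0.70 and 0.95 (adjusted p = 0.0106, 0.00653 and 8.44e-04, edgeR), and Prkar1a and Cox6a1 had 0.38 and 0.33 (adjusted p = 0.197 and 0.365). Closest to Ins1 were Swsap1 (0.93), Lias (0.91), Coa3 (0.91), Samd10 (0.91) and Sqstm1 (0.90), and closest to Ins2 were Ndufa6 (0.94), Zfp386 (0.93), Naa20 (0.93), Tfrc (0.91) and Immp1l (0.91). None of these 10 passed at 35 against 11.8 mM, where 0.863% of all genes tested passed in either direction. Between the members r was 0.057 for Ins1 and Ins2, 0.11 for Ins1 and Iapp and -0.38 for Ins2 and Iapp.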

How the data were processed

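The authors deposited counts per gene and barcoded sub-library. The submitters' processing notes name GRCm38.p4, TopHat, HTSeq, cutadapt and DESeq2, without versions, and no source used here gives the annotation or the counting strand. Per the labels' protocols, CEL-Seq2 libraries were made from 3 ng of RNA, with read 2 of 52 bases. The deposited counts are reads, not molecules: the highest was 605402, and 16 genes exceeded the 4096 possible molecular identifiers in a sub-library. Intervals therefore cover counting error only, and the widest 95% Wilson interval of a member's share in a sub-library reached 0.113 percentage points to either side.

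A deposited sample sheet links the 27 sub-libraries to the labels, and they were summed to 9 libraries. Elsewhere, 30 columns of per-sample values were not used because their names match no label. ERCC spike-in RNAs (92) and 5 summary lines (19.6% to 29.9% of counted reads) stayed out of library sizes and tests.

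Tests used edgeR 4.0.16 in R 4.3.3 (TMM, filterByExpr, robust quasi-likelihood, a mean per concentration over all 9 libraries), adjusted over 9739 genes and called under 0.05. Ratios within libraries were compared by exact permutation tests. The method was tested on simulated data. Alternatives were other scalings (DESeq2 size factors, totals, no member genes, insulin or ERCC counts as sizes), no filter or 10 CPM in 3 libraries, the DESeq2 1.42.0 Wald test, the replicate block, fits of the 2 concentrations compared, each library left out, sub-libraries 1, 2 or 3 alone, medians of sub-libraries (for ratios) and leaving out the 2 low sub-libraries. They were applied to list genes after the data were seen. Members, lists and settings were chosen with earlier results of these data known. Named were the members, the called genes of each list (or the 1 with the smallest p) and the 5 genes closest to each member by r, with predicted genes left out. The other genes, such as Pdx1, Pam or Slco1a5, were chosen after their values were seen.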

Additional observations from a re-analysis of the deposited data

Results flagged for a closer look

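Reads aligned to more than 1 place, which enter no comparison, made up 22.6% of all counted reads in 35 mM replicate 1, against 21.9%, 16.1% and 13.5% in the 3 libraries at 11.8 mM. What drew attention was a level above that of the control libraries, by a small margin over 11.8 mM replicate 1. These are the 2 libraries that hold the sub-libraries with low Ins2 or Ins1, at 39.5% and 35.2% of such reads. The relation of these reads to the insulin counts was not tested.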

How the results depend on the processing

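The limits are 3 libraries per concentration, read counts without collapsed molecules, and a stretch nearly shared by the insulin genes. The direction of Iapp was positive in all 23 alternatives of each comparison, and its call at 35 against 11.8 mM was lost in 3: with sub-library 1 alone (0.45) and without 2 libraries (range without each library 0.60 to 0.64). At 20 against 11.8 mM the DESeq2 Wald test called Iapp (0.39). Ins2 stayed below 0 at 35 against 11.8 mM (-0.51 to -0.046) and at 35 against 20 mM, and Ins1 above 0 at 35 against 20 mM, in 22 of 22 alternatives each, with 0 calls.

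Ins1 at 35 against 11.8 mM changed sign with sub-library 1 (-0.16) or 2 (-0.0048) alone and without the 2 low sub-libraries (-0.013). At 20 against 11.8 mM Ins1 turned to 0.027 with sub-library 3 alone (-0.18 to 0.018 without each library), and Ins2 to 0.0047 with ERCC sizes, which moved the median of all genes to 0.057 (Ins2 was at -0.052 relative to it), and to 0.00014 with sub-library 1 alone (-0.26 to 0.12 without each library). The share of Ins1 in insulin turned to -1.58 points at 35 against 11.8 mM with sub-library 1 alone, and to 3.81 points at 20 against 11.8 mM with sub-library 3 alone (-3.43 to 1.43 without each library). The insulin share ran from -4.12 to 0.024 points at 35 against 11.8 mM without each library; at 35 against 20 mM it was -0.39 with sub-library 3 alone and ran from -1.17 to 1.36 without each library. The cause was not tested in any of these.

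Genes called at 35 against 11.8 mM numbered 142 with ERCC sizes, 148 without a filter, 12, 42 and 39 with sub-library 1, 2 or 3 alone, and 41 to 138 without each library. At 20 against 11.8 mM there were 30 with ERCC sizes, 51 without a filter, 52 with DESeq2, 11 in a fit of the 2 concentrations, 2 and 8 with sub-library 1 or 2 alone, and 7 to 35 without each library. At 35 against 20 mM there was 1 with each sub-library alone, and 1 to 7 without each library. Fewer reads enter the fits of sub-libraries.

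The replicate numbers did not pair the libraries: deviations of same-numbered libraries had r from -0.41 to 0.16, and 3 of 9 libraries correlated best with their own number. With the replicate block Iapp stood at 0.63 (adjusted p = 0.0326, edgeR) at 35 against 11.8 mM, with 74 genes called, and at 0.39 and 0.24 in the other comparisons, and Ins1 and Ins2 at 0.11 and -0.23. The block lost the calls of Igf1r (adjusted p = 0.0640) and Pdia6 (adjusted p = 0.109, edgeR).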

Other observations

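The position of a sub-library within its sample went with the shares of the member genes. Iapp, as a share of non-insulin counts, was highest in sub-library 2 in 7 of the 9 samples and in sub-library 1 in 0, and it was lowest in sub-library 1 in 6. The share of Ins1 in insulin was also highest in sub-library 2 in 7 of 9 samples. Every sample has the 3 positions once, but their counts were summed, so that each position weighs by its depth. For example, sub-library 1 held 902250 of 4559561 gene counts in 11.8 mM replicate 2 and 1543813 of 3614552 in 35 mM replicate 2. The part of position in the differences between concentrations was not tested. With sub-library 1 alone the log2 fold change of Iapp at 35 against 11.8 mM was 0.45, and with sub-libraries 2 and 3 alone it was 0.69 each.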
